A study of Caenorhabditis elegans with 2 samples.

Results

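The 6 genes described here make the RNA parts of 3 ribonucleoprotein machines of Caenorhabditis elegans: rpr-1 (the RNA of RNase P), mrpr-1 (the RNA of RNase MRP) and the signal recognition particle (SRP) RNA genes srpr-1.1, srpr-1.2, srpr-2.1 and srpr-2.2. They are 6 of 46890 annotated nuclear genes. They were chosen by name, with their SCRT-1 peaks already known, so the presence of a peak at each of them and its height describe the choice and are not tested. For each gene, peaks whose summit lay within 300 bp of the annotated start were taken. The data are anti-GFP chromatin immunoprecipitation followed by sequencing (ChIP-seq), in 1 group of 2 biological replicates with no second condition.

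The embryos came from strain OP802. It carries the transgene wgIs802, in which scrt-1 is fused to TY1, EGFP and 3xFLAG tags and which brings along unc-119(+), in an unc-119 (tm4063) mutant background. Both replicates share these alleles, so the protein followed is a tagged SCRT-1 made from a transgene. Early embryos aged 2 hours were obtained by bleaching and used whole, so the cells that bind cannot be told apart, and chromatin was sonicated to 200 to 800 bp. SCRT-1 is a zinc finger transcription factor of the Scratch family, relatives of Snail.

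RNase P is the enzyme that cuts the 5' leader from precursor tRNAs, and RNase MRP is a related enzyme that takes part in cutting precursor ribosomal RNA. The signal recognition particle binds ribosomes that are making secreted or membrane proteins and brings them to the endoplasmic reticulum, and its RNA is the scaffold on which the proteins assemble. In vertebrates these RNAs are made by RNA polymerase III, as tRNAs are.

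The genome sequence at 5 of the genes is shown, all but rpr-1, so that the place of each summit can be read. Each line runs 5' to 3' on the gene's own strand, in the RefSeq sequence of WBcel235 (ce11), from 20 bases before the annotated start to base 109 of the gene, counting the start as 0. Capitals mark the 21 bases centred on the summit in the list called from both replicates. The windows are mrpr-1 chrII:7200213-7200342 (+), srpr-1.1 chrIII:4379097-4379226 (-), srpr-1.2 chrIII:4369448-4369577 (+), srpr-2.1 chrIII:5211200-5211329 (+), srpr-2.2 chrIII:5031599-5031728 (-).
mrpr-1: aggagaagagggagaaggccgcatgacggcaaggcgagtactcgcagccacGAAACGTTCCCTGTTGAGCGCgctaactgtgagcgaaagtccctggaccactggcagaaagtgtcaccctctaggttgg
srpr-1.1: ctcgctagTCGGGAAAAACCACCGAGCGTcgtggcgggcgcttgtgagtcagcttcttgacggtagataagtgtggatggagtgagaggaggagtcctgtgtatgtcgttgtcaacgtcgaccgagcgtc
srpr-1.2: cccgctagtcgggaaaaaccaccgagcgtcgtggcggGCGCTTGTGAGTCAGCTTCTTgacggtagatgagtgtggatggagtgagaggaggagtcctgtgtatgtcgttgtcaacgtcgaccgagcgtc
srpr-2.1: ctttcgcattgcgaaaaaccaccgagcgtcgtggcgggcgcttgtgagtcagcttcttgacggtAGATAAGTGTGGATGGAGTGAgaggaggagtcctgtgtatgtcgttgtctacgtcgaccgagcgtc
srpr-2.2: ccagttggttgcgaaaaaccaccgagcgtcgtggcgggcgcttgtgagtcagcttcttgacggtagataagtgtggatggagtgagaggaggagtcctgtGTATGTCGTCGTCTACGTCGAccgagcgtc

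The SRP RNA genes carry the same first bases, and their capitals fall at different places along them. In srpr-1.1 the capitals straddle the start, in srpr-1.2 and srpr-2.1 they lie further in, and in srpr-2.2 they lie furthest in.

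The 6 genes all had a peak in the list that requires both replicates, called the conservative list, which holds 1211 peaks, called sites here. By the same rule 2.34% of all nuclear genes had such a site. The share was 1.65% of protein-coding genes, 4.73% of genes of the class ncRNA, 10.9% of snRNA genes, 18.8% of snoRNA genes and 46.1% of tRNA genes. The 6 genes also all had a peak in the separate thresholded list of each replicate, where 1.45% of genes in replicate 1 and 1.41% in replicate 2 did. Nothing is read from this count, since the genes were chosen with these peaks known. Signal is the height that the authors' peak caller gave each peak, on no stated scale, and it is used below only within a list or against all sites of the same lists.

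rpr-1 lies at I 13463955 to 13464207 on the plus strand, inside an intron of ints-8, a gene for a subunit of the Integrator complex that is transcribed from the opposite strand. Its 253 bases share 0 bases with ints-8 exons, and the ints-8 start is 891 bp away. The peak covered 13463862 to 13464033 and had a signal of 308, which ranked 86 of 1211 and was higher than 92.9% of sites. Its signal was 183 in replicate 1 and 121 in replicate 2, a ratio of 1.51, and 73.6% of the 1125 sites matched in both replicates had a lower ratio. It was thus the strongest of the 6 in the conservative list and in replicate 1. The summit lay 19 bp into the gene in the conservative list, 4 bp in replicate 1 and -3 bp in replicate 2, so the 3 summits spanned 22 bp around the start.

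mrpr-1 lies at II 7200233 to 7200418 on the plus strand, between genes. The start of pcrg-1, a homologue of the parkin co-regulated gene, is 316 bp further on the same strand, which places the summit 275 bp before that start and inside the 300 bp window of both genes. The peak covered 7200181 to 7200297, with a signal of 272, rank 109 and 91.0% of sites lower. The signal was 147 in replicate 1 and 126 in replicate 2, a ratio of 1.17 that was higher than at 35.7% of matched sites. In replicate 2 it was the strongest of the 6. The summit lay 41, 37 and 12 bp into the gene in the conservative list, replicate 1 and replicate 2, every time closer to the start of mrpr-1 than to that of pcrg-1.

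The SRP RNA genes are all on chromosome III. srpr-2.2 lies at III 5031410 to 5031708 on the minus strand, inside an intron of klp-6, a kinesin gene on the opposite strand, and shares 39 bases with an exon of the non-coding gene R144.16. Its peak covered 5031564 to 5031712 with a signal of 230, rank 144 and 88.1% of sites lower. The replicates gave 136 and 81.0, a ratio of 1.67, and 85.5% of matched sites had a lower ratio, so replicate 1 was high here more than at most sites. Among the strongest conservative sites of the 6 genes its summit was also the one furthest into the gene, at 90 bp, with 100 bp in replicate 1 and 60 bp in replicate 2. It lay 199 bp from the start of R144.16, so this non-coding gene falls in the same window.

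srpr-1.2 lies at III 4369468 to 4369766 on the plus strand, in an intron of ckb-2, a choline kinase gene transcribed from the same strand. Its peak covered 4369401 to 4369564 with a signal of 220, rank 159 and 86.9% of sites lower. The replicates gave 104 and 115, a ratio of 0.910, and 9.07% of matched sites had a lower ratio. Replicate 2 was thus the higher one here, while the median ratio over matched sites was 1.28, with quartiles of 1.08 and 1.53. The summit lay 27, 25 and 7 bp into the gene. A second and much lower conservative site, rank 1074, had its summit at 230 bp, near the end of the gene. In the ranked list of both replicates this second site was matched to a replicate 1 peak of 55.8 and to the same replicate 2 peak of 115 as the first, and replicate 2 had no peak of its own there. The second site was not in the optimal list, and its replicate 1 candidate had an irreproducible discovery rate (IDR, an estimate of the share of peaks at its rank or better that would not repeat) of 0.816.

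srpr-2.1 lies at III 5211220 to 5211518 on the plus strand between genes. The nearest protein-coding start upstream, at -2111 bp, is that of syx-16, a syntaxin gene. Its peak covered 5211116 to 5211431 with a signal of 146, rank 299 and 75.3% of sites lower. In the thresholded lists of single replicates it was above 45.6% of peaks in replicate 1 and 34.3% in replicate 2, below the middle of both lists. The replicates gave 81.6 and 59.1, a ratio of 1.38 that was higher than at 63.5% of matched sites. The summit lay 54 bp into the gene in the conservative list and in replicate 2, and 109 bp in replicate 1. That gap of 55 bp between replicates was the widest of the 6 and compares with a median of 23 bp over matched sites, quartiles 8.0 and 46.0. A second peak at 255 bp, with a signal of 123, was in the more permissive list called optimal and not in the conservative one.

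srpr-1.1 lies at III 4378909 to 4379206 on the minus strand between genes. The nearest protein-coding start upstream, at -611 bp, is that of B0284.3. Its peak covered 4379125 to 4379251 with a signal of 144, rank 309 and 74.5% of sites lower, the lowest of the 6. In the shorter thresholded lists of single replicates it was above 32.8% of peaks in replicate 1 and 59.4% in replicate 2. The replicates gave 71.5 and 80.8, a ratio of 0.885, with 7.82% of matched sites lower. As at srpr-1.2, the closest relative of srpr-1.1 in sequence, replicate 2 was the higher one. The summit was at -2 bp in the conservative list, 10 bp in replicate 1 and 9 bp in replicate 2. Another site of similar height, signal 147 and rank 297, lay 481 bp from the start, past the end of the gene and outside the 300 bp window, where the replicates gave 72.1 and 77.7. The summit of the srpr-1.2 second site, at 230 bp, was the conservative one nearest to the edge of that window on the inside.

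**Figure D1:**
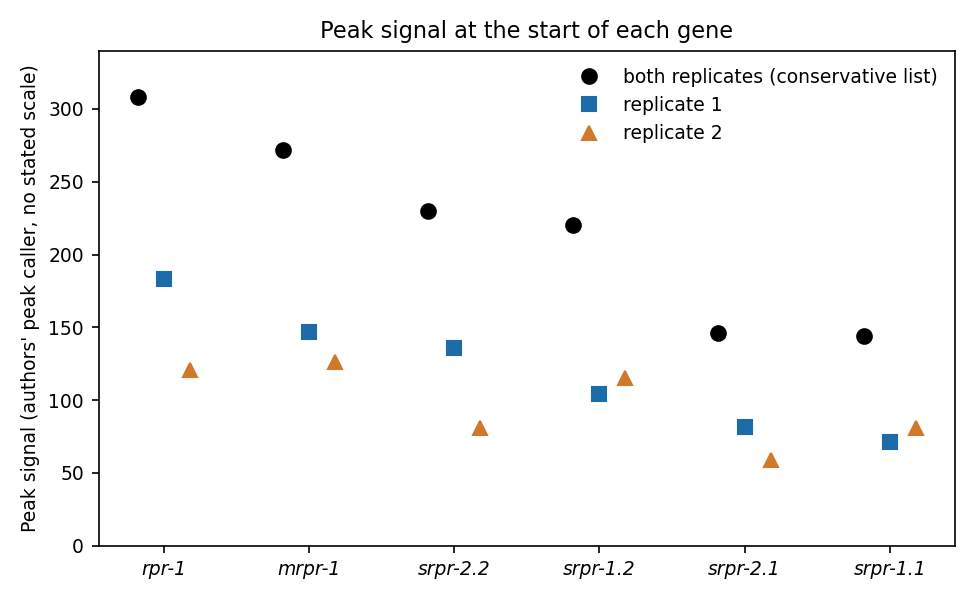
Peak signal at the start of each of the 6 genes, on a linear axis with no stated scale, in the conservative list (circles), replicate 1 (squares) and replicate 2 (triangles). Genes run from the highest conservative signal, 308 at rpr-1, to the lowest, 144 at srpr-1.1, and replicate 2 is above replicate 1 at srpr-1.2 and srpr-1.1 and below it at the other 4.

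**Figure D2:**
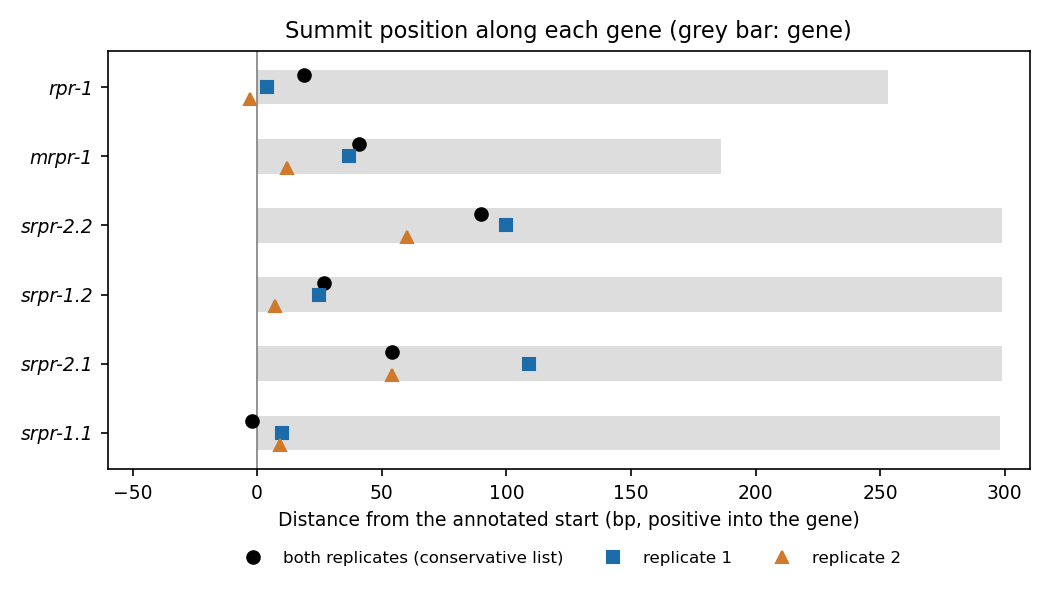
Distance of each summit from the annotated start in bp, positive into the gene, with the gene drawn as a grey bar. Summits fall between -3 and 109 bp, in the first part of every gene, and those of srpr-2.1 and srpr-2.2 lie further in than those of the other 4 in each list.

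The order of the 6 was the same in the conservative list and replicate 1, from rpr-1 and mrpr-1 through srpr-2.2 and srpr-1.2 to srpr-2.1 and srpr-1.1. In replicate 2 each of these 3 neighbouring pairs changed places. With 2 replicates, the order within a pair was therefore not settled beyond the spread between replicates. The order between pairs held in both, as the plot of signal by gene shows: the RNase P and MRP genes were above srpr-2.2 and srpr-1.2, and these above srpr-2.1 and srpr-1.1, although in replicate 2 the gap between srpr-2.2 at 81.0 and srpr-1.1 at 80.8 was small.

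The 7 conservative sites at these genes include the second one at srpr-1.2. Of them 1 was among the 100 strongest sites of the list, 4 among the 200 strongest, 5 among the 300 strongest and 6 among the 400 strongest. Sites whose nearby start was that of a tRNA gene had a median signal of 167 (quartiles 109 and 258, n = 256), those of snoRNA genes 260 (115 and 386, n = 68) and those of snRNA genes 152 (114 and 199, n = 11). At other ncRNA genes the median was 83.8 (75.6 and 106, n = 118). At protein-coding starts the median was 91.8 (82.0 and 122, n = 227), and at sites with no start within 300 bp it was 84.6 (75.8 and 101, n = 524). The strongest site of each of the 6 genes lay between the snoRNA quartiles. Those of rpr-1 and mrpr-1 were above the upper tRNA quartile, and the rest lay between the tRNA quartiles. Of the 256 tRNA gene sites, 40 were stronger than rpr-1 and 153 were stronger than srpr-1.1. Among the 68 snoRNA gene sites these counts were 30 and 46, and among the 11 snRNA gene sites 1 and 6. Of 227 sites at protein-coding starts, 5 were stronger than rpr-1 and 42 stronger than srpr-1.1.

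**Figure D3:**
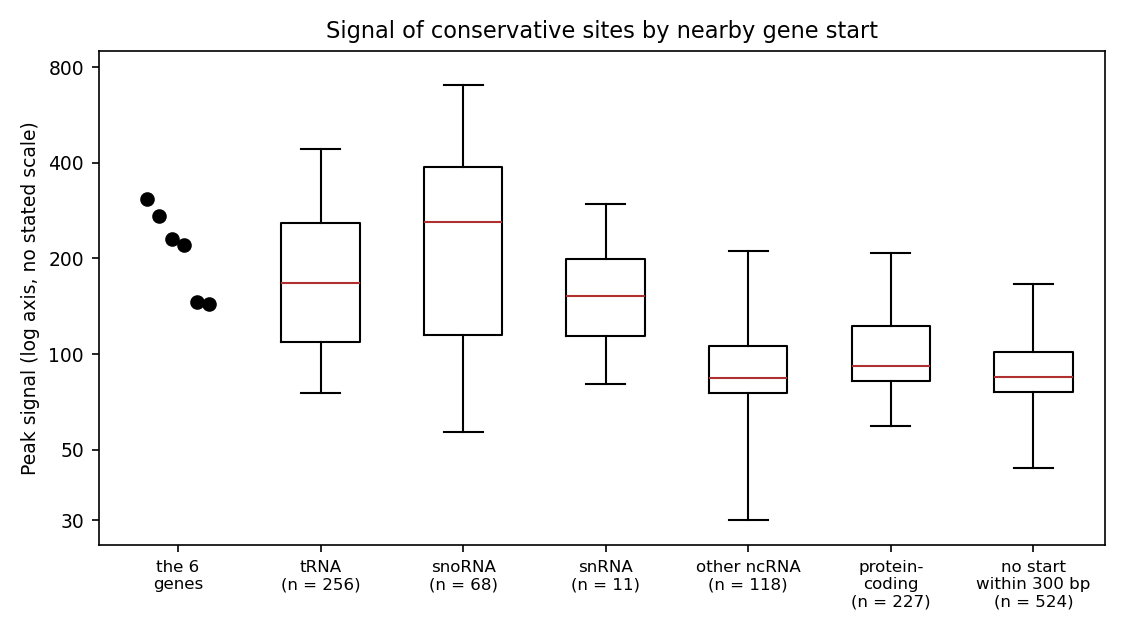
Signal of the conservative sites on a log axis with no stated scale, for the 6 genes (points, first site of each) and for all other sites by the class of nearby start. Boxes span the quartiles around the median and whiskers reach the 5th and 95th percentiles; the 6 points, 144 to 308, lie above the median of 84.6 for sites with no start nearby.

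The place of the summit can be set beside that at other genes. Summits at tRNA genes lay at a median of 20.5 bp into the gene (quartiles 8.0 and 35.0), against -45.0 bp, that is upstream, at snoRNA genes (quartiles -55.2 and -32.0) and -113.0 bp at protein-coding starts (quartiles -183.0 and -3.0). At snRNA genes the median was 33.0 bp (quartiles -4.0 and 51.0), and at other ncRNA genes it was 33.0 bp with wider quartiles of -56.0 and 105.2. The conservative summits of rpr-1 and srpr-1.2 fell between the tRNA quartiles and also between the snRNA quartiles. Those of mrpr-1 at 41 bp and srpr-1.1 at -2 bp fell outside the tRNA quartiles and between the snRNA quartiles. Those of srpr-2.1 and srpr-2.2 were further in than both, at 54 and 90 bp. All 6 lay between the wider quartiles of other ncRNA genes. The places relative to the tRNA quartiles changed within the spread between replicates. Outside them were rpr-1 in both replicates (4 and -3 bp) and srpr-1.2 in replicate 2 (7 bp). Between them were srpr-1.1 in both replicates (10 and 9 bp) and mrpr-1 in replicate 2 (12 bp). In the conservative list peaks were narrow at 5 of the 6 genes, from 117 bp at mrpr-1 to 172 bp at rpr-1. There srpr-2.1 had the fixed width of 316 bp. Over that whole list 14.4% of sites were narrower than 316 bp, as were 34.0% of those at tRNA genes. The share was 57.4% at snoRNA genes, 27.3% at snRNA genes and 5.08% at other ncRNA genes. The narrow width did not hold in each replicate. In replicates 1 and 2 the mrpr-1 peak was 300 and 270 bp wide. That of srpr-1.1 was 300 and 74 bp, and that of srpr-2.2 was 84 and 270 bp. Peaks of rpr-1 (137 and 86 bp) and srpr-1.2 (94 and 76 bp) were narrow in both.

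The bases before the start are shown for the same 5 genes, from base -80 to base -1, because members share short words there. Capitals mark the shared words. GTGTCNGCC, ACTCTC and AAAAACC were picked after the sequences were seen, while TATATA came from a fixed list of words. The windows are mrpr-1 chrII:7200153-7200232 (+), srpr-1.1 chrIII:4379207-4379286 (-), srpr-1.2 chrIII:4369388-4369467 (+), srpr-2.1 chrIII:5211140-5211219 (+), srpr-2.2 chrIII:5031709-5031788 (-).
mrpr-1: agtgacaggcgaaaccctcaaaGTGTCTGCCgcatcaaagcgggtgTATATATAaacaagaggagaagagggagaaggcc
srpr-1.1: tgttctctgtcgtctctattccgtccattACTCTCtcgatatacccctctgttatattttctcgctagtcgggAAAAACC
srpr-1.2: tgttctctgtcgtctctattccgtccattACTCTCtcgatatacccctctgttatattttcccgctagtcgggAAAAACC
srpr-2.1: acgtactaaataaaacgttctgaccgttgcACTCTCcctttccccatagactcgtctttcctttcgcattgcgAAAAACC
srpr-2.2: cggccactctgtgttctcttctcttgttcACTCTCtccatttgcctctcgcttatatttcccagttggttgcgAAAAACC

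The gene bodies of rpr-1 and mrpr-1 were identical in 131 of 262 aligned columns, no more than rpr-1 with the SRP RNA genes (50.6% to 52.0%). Before the start, however, both carry GTGTCNGCC on their own strand, from base -56 in rpr-1 and from base -58 in mrpr-1. Of 46875 windows of the same 100 bases before a gene start, 0.0811% hold that word on either strand, and 0.287% of those at non-coding genes do. Both genes also have TATATA about 30 bases before the start, from base -30 in rpr-1 and from bases -34 and -32 in mrpr-1, a word that 5.07% of windows hold. mrpr-1 further holds TATAAA from base -30, which overlaps its TATATA run and is in 17.5% of windows. These words were searched on both strands.

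The SRP RNA genes share ACTCTC, from base -50 in srpr-2.1 and from base -51 in the other 3, and AAAAACC in the 7 bases just before the annotated start. These are in 3.59% and 5.63% of windows. Only the exact words TATATA and TATAAA were searched as TATA words. The printed lines of srpr-1.1, srpr-1.2 and srpr-2.2 hold ttatattt at about the place of the TATA words of rpr-1 and mrpr-1. ACTCTC also occurs on the opposite strand of rpr-1, from base 76. GAGAGA, a fixed word, lies on the opposite strand from base -49 in srpr-1.1, srpr-1.2 and srpr-2.2, where it overlaps ACTCTC, and on the own strand of rpr-1 from base 26. GCGCGC occurs at base -16 of rpr-1 and at base 48 of mrpr-1. Of all windows from base -100 to base 109, 12.6% hold GAGAGA and 1.61% hold GCGCGC. At non-coding genes these shares are 21.8% and 3.75%. The Snail and Scratch E-box CAGGTG, its variant CAAGTG, the tRNA B box core GTTCGA and the GC box GGGCGG were each found in 0 of the 6 windows from base -100 to base 109. The shares of all windows of that length that hold these 4 words are 5.31%, 8.65%, 8.90% and 4.26%. That says only that these letters are not in these windows.

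The SRP RNA gene bodies were 94.0% to 99.0% identical over their 6 pairs, while the 100 bases before the start ranged from 55.5% to 95.0%. srpr-1.1 and srpr-1.2 were 98.3% identical in the body and 95.0% upstream, with an unbroken shared run of 65 bases from base -84. srpr-2.1 and srpr-2.2 were 99.0% identical in the body and 55.6% upstream. The bodies are so alike that short reads from them may fit several copies, and how the authors placed such reads is not given in the sources used here. Stretches of 30 bases were therefore counted across the genome on both strands. In the bodies of srpr-1.1, srpr-1.2, srpr-2.1 and srpr-2.2, 87.7%, 76.3%, 73.3% and 71.9% of these stretches occurred more than once, in up to 4 places, and rpr-1 and mrpr-1 had 0.

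Within 50 bp of the conservative summit the repeated share was 58.3% at srpr-1.1, 51.4% at srpr-1.2, 83.3% at srpr-2.1 and 58.3% at srpr-2.2. The stretch centred on the summit itself occurred 2 times in the genome at srpr-1.1, 4 times at srpr-1.2, 3 times at srpr-2.1 and 1 time at srpr-2.2. For the SRP RNA genes, the part of shared reads in the signal of each copy, and in the differences between copies, was not tested. At rpr-1 and mrpr-1 every stretch counted was unique. Across all sites 40.1% had a repeated stretch within 50 bp of the summit. The share was 94.5% at tRNA genes and 25.5% at the other sites.

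**Figure D4:**
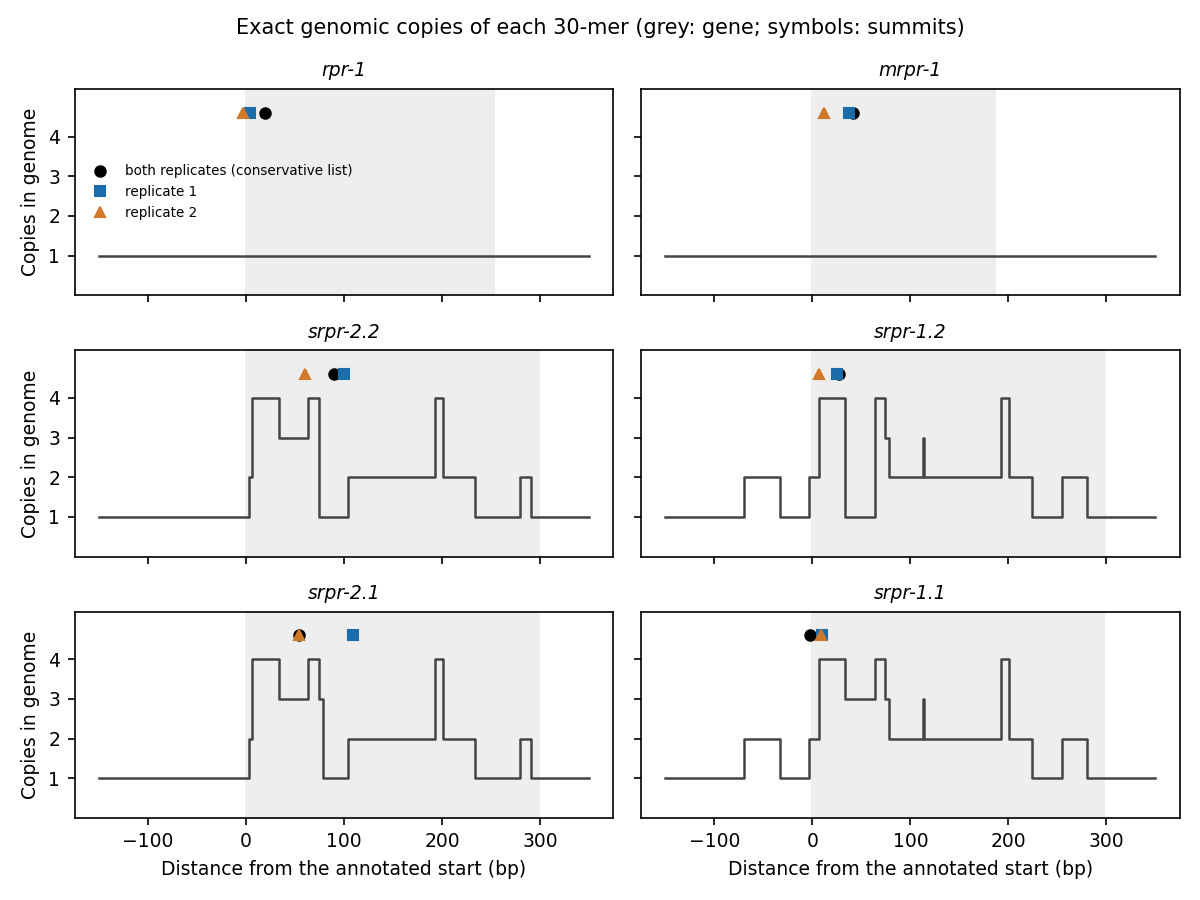
Number of exact genomic copies of each stretch of 30 bases, by the position of its centre from -150 to 350 bp around the start, with the gene in grey and summits as symbols at the top, whose height has no meaning. The line stays at 1 for rpr-1 and mrpr-1 and reaches 4 inside each SRP RNA gene.

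A further SRP RNA gene, srpr-3 on chromosome V, is not among the 6 and gives a copy that can be told apart, since 1 of its 270 stretches is repeated. Its conservative site had a signal of 86.9, rank 724, with 40.2% of sites lower. The replicates gave 42.6 and 45.3, and the site was in neither replicate's own thresholded list. All of srpr-3 lies within exons of another non-coding gene, F44A2.13. Its summits lay 97, 94 and 153 bp into the gene in the conservative list, replicate 1 and replicate 2.

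The protein genes of the same particles were counted by the same rule. Of 16 protein-coding genes named for SRP, RNase P or RNase MRP, 2 had a conservative site within 300 bp of a start, beside 1.65% of all protein-coding genes. One of them was F37F2.2, for the putative SRP19 protein, with a signal of 78.0 and a summit at -263 bp, lower than the lowest of the 6 RNA genes. By the same rule 0 of the 16 had a peak in either replicate's own thresholded list, where 1.45% of all nuclear genes in replicate 1 and 1.41% in replicate 2 did. The share of protein-coding genes alone was not counted in these replicate lists. Among 16 genes a count of 0 is near the shares of all nuclear genes, so nothing is read from it. A further gene of the particle, F21D5.7 for SRP54, had a candidate with a signal of 60.5 whose IDR was 0.0211, above those of the 6 RNA genes, which ran from 0.000117 at rpr-1 to 0.000711 at srpr-2.1. The RNase P subunit genes popl-7 and Y62E10A.24 shared a candidate with a signal of 42.0 and an IDR of 0.247. The list follows gene symbols and RefSeq product text, and 1 gene that entered by its product text has a symbol of another family.

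The non-coding genes most like each of the 6 were sought among 470 genes. Left out of this search were tRNA genes and pseudogenes, so a tRNA gene closer than those named would not be seen. For example, a tRNA gene site had a signal of 270 (146 and 118 in the replicates) and a summit at 40 bp, near the values of mrpr-1. Distance was taken over log2 signal in both replicates together and each alone, and over the summit offset in units of 50 bp. Nearest to rpr-1 were the snoRNA gene Y38F2AR.14, at a distance of 0.41 with a signal of 336 and a summit at 2 bp, and C14F11.14 at 0.43. Nearest to mrpr-1 was ZK816.9 at 0.18, with a signal of 274 and a summit at 33 bp, followed by Y37E11C.3 at 0.33, whose summit lies 26 bp from a tRNA start. For srpr-2.2 they were sls-2.4, an SL2 spliced leader RNA gene, at 0.26 with a signal of 231 and a summit at 103 bp, and F55G7.6 at 0.27. For srpr-1.2 they were F57B10.17 at 0.35 and F08G2.13 at 0.48. For srpr-2.1 they were Y55F3BR.16 at 0.12 and Y7A9D.62 at 0.24, and for srpr-1.1 they were Y7A9D.64 at 0.47 and C14C10.8 at 0.49. Of these 12 neighbours, those of mrpr-1, srpr-1.1, srpr-2.1 and srpr-2.2 include genes whose peak may belong to a tRNA gene beside them.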

How the data were processed

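Peak lists in ce11 were deposited by the authors for each replicate and for both together; no aligner or peak caller was given in the sources used here. Signal is the authors' deposited peak height, with no stated scale. The deposited −log10 of the global IDR was turned back into the IDR, and summits were placed from the offset that the narrowPeak files of the authors give. Numbers of reads are not in these lists, so depth is unknown; the control library was not analysed here. Replicate numbers are those of the labels; replicate values come from each replicate's own ranked list. Summits were set against Ensembl release 115 starts, positive into the gene (Python 3.11.15, pandas 2.3.3, numpy 2.4.6), and the placement was tested on simulated data. Bodies and upstream windows were aligned with Biopython 1.88 (match 1, mismatch -1, gap -2, extension -0.5). Matching of sites between replicates allowed 150 bp. Of 11 words, 8 were a fixed list and 3 were picked from the sequences. Named genes are the 6, their neighbours, particle protein genes and the 2 nearest to each by the distance described; 2 protein symbols of the list matched no gene name, and the values of 1 protein gene are not reported here. The members and lists were chosen with earlier results of these data known. No test was run. Alternatives were other windows, lists and IDR limits, and each replicate alone.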

Additional observations from a re-analysis of the deposited data

How the results depend on the processing

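All 6 genes had a site under each setting tried: windows of 100 and 1000 bp, the optimal list, IDR limits of 0.001 and 0.05, overlap with the gene body, and each replicate alone. The genes were chosen with these peaks known and every list comes from the same 2 replicates, so nothing is read from this count. Except for each replicate alone, the share of all genes with a site was not counted under these settings. Their median place among sites was above 87.5% of the conservative list and 87.9% of the optimal list, and above 68.3% to 69.6% of the peaks in the thresholded lists of single replicates, which are shorter. The fall was largest at srpr-1.1, from 74.5% to 32.8% in replicate 1, and at srpr-2.1, from 75.3% to 45.6% in replicate 1 and 34.3% in replicate 2. The median summit was 34 bp into the gene in the conservative and optimal lists and 10.5 to 31 bp in single replicates, lowest in replicate 2. Of the particle protein genes 2 had a site, also at 1000 bp, and 0 did in either replicate alone, where 1.45% and 1.41% of all nuclear genes did. Depth is unknown, so no counting interval is given, and the spread of a signal is that of 2 replicates. The scale of the signal is not stated. No paired analysis was possible because there is 1 group.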

Other observations

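The word GTGTCNGCC that rpr-1 and mrpr-1 share was found on the own strand of 29 other genes in the 100 bases before the start, and 4 of these had a conservative site within 300 bp, beside 2.34% of all nuclear genes. These 4 were 2 of 12 ncRNA genes with the word (4.73% of all ncRNA genes) and 2 of 8 snoRNA genes (18.8% of all snoRNA genes). The non-coding gene W01D2.9 had the word from base -57, a TATA word (TATATA or TATAAA) from base -31, a signal of 195 and a summit at -24 bp. R07E5.16, an snRNA gene, had the word and a TATA word at the same bases and no candidate peak in its window. The word was chosen after the sequences were seen, and its part in binding was not tested.

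A run of at least 4 T began between base -3 and base 7 from the annotated end of each of the 6 genes, and was 7 long in srpr-2.1. The share of other genes with such a run was not counted, so nothing is read from it. The GC content of the 100 bases before the start was 69.0% at rpr-1 and 43.0% to 51.0% at the other 5.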
